A study of Mus musculus with 21 samples.

Results

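The genes described here encode the nuclear-encoded protein subunits of the mitochondrial respiratory chain and of ATP synthase, together with factors that assemble complexes I and II. They were chosen by symbol: 89 of the 25428 rows of the expression table had a platform symbol that begins with Nduf, Sdha to Sdhd, Uqcr, Cox4i, Cox5 to Cox8 or Atp5. A further 4 rows with these stems are annotated as pseudogenes and were left out. By the names of the genes, 77 of the 89 are subunits and 12 are assembly factors, since the stems Nduf and Sdha also take in symbols that begin with Ndufaf and Sdhaf. The subunits divide into 36 of complex I, 4 of complex II, 7 of complex III, 17 of complex IV and 13 of complex V; 8 assembly factors serve complex I and 4 serve complex II. The choice used no measured value, but it was made with earlier results of these livers known.

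Oxidative phosphorylation takes electrons from NADH at complex I and from succinate at complex II, passes them through ubiquinone to complex III and through cytochrome c to complex IV, which reduces oxygen. Complexes I, III and IV pump protons out of the matrix as they work, and complex V lets them return and makes ATP. All complexes but complex II also contain subunits made inside the mitochondrion from its own DNA, and their parts are put together by dedicated assembly factors. In the liver, hepatocytes are rich in mitochondria and make up most of the tissue's mass.

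Whole-liver RNA of 21 mice was measured on Affymetrix expression arrays, 1 array per animal. Knockout livers (10; Gata4-LSEC-KO) came from mice in which a floxed Gata4 allele (Gata4tm1.1Sad) was combined with an improved Cre expressed from Clec4g sequence (Clec4g-icre), a driver for sinusoidal endothelial cells of the liver, so the gene was not targeted in hepatocytes. Control livers (11) came from sibling mice labelled wt, and the labels do not say whether they carried floxed alleles or Cre. All mice had a standard diet; age and sex were not given. The sample numbers in the descriptions form 2 runs of consecutive values, called run 1 (4 knockout and 5 control livers) and run 2 (6 knockout and 6 control livers) here, and the labels do not call them batches. Values are log2 RMA signals, deposited by the authors, with the same distribution on every array and a median of 3.75; each gene has its own probes, so a higher signal in one gene than in another does not mean more transcript. Gata4 ran from 6.10 to 6.92 in knockout livers, against 6.34 to 7.35 in control livers, and did not pass the test (adjusted p = 0.264), whereas Clec4g ran from 5.98 to 7.57 in knockout livers, against 6.36 to 8.63 in control livers, and fell (adjusted p = 0.0176). The tissue label was borne out by 13 measured hepatocyte genes such as Alb and Ttr, whose mean signal lay between 12.54 and 12.69 in knockout livers and between 12.56 and 12.70 in control livers.

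Across the 89 genes the difference between genotypes was small, and most genes did not pass the test. A gene was said to rise or fall when the difference, fitted with limma over all genes with genotype and run as terms, had a Benjamini-Hochberg adjusted p under 0.05. In knockout livers 1 member rose, the complex I subunit gene Ndufc1, 10 fell, and 78 did not pass. The 10 that fell were the complex I subunit genes Ndufa13, Ndufb11, Ndufb6 and Ndufa5, the complex I assembly genes Ndufaf7, Ndufaf6 and Ndufaf1, and Sdha, Cox6c and Atp5j, from complexes II, IV and V. The share past the threshold was 12.4% of the members, against 7.33% of all genes. Bright genes passed more often than dim ones here: among the 12714 genes with a mean signal above the median gene, 12.6% passed, and among the 79 members above it, 13.9% (10 lower and 1 higher). In narrower bins of signal, given further on, the shares were further apart and in both directions. By direction, 11.2% of the members fell, against 4.05% of all genes (above the median gene 12.7% of members, against 7.06% of genes), and 1 member rose where 3.28% of all genes did. The median difference was -0.063 (log2, knockout minus control) over the members and -0.013 over all genes; 60 of the 89 members had a difference below 0 (67.4%, against 54.9% of all genes). No member had groups that did not overlap, and 0.13% of all genes did. The count of members that fell depended on single livers: it was 4 without control replicate 8, 5 without control replicate 9, and 6 without control replicate 4, knockout replicate 3 or knockout replicate 4. The count over all genes also moved, from 1030 to 629 without control replicate 8 and to 661 without control replicate 9. The shares that fell were then 4.49% of members and 2.47% of all genes without control replicate 8, and 5.62% and 2.6% without control replicate 9.

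**Figure D1:**
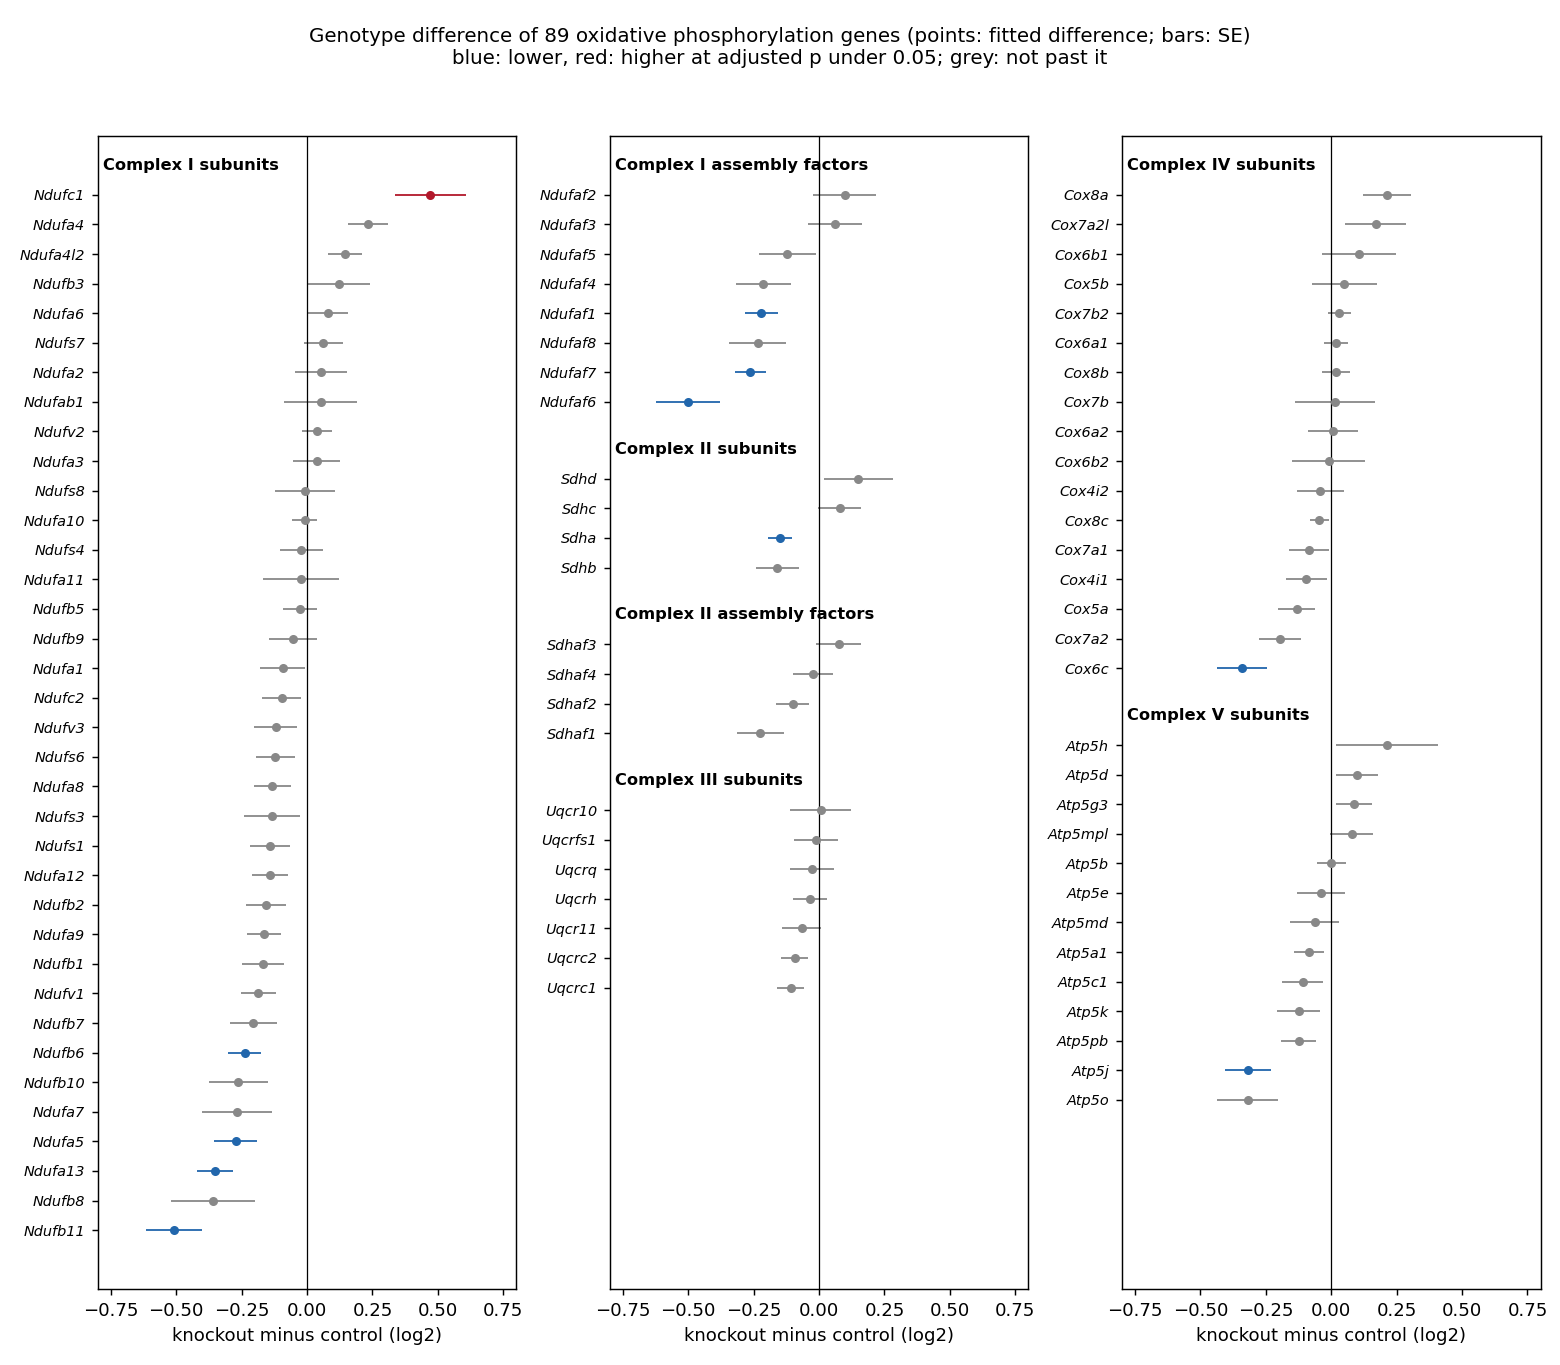
Fitted difference between genotypes for each of the 89 genes (x axis: knockout minus control, log2; bars: SE), arranged by complex and sorted within it. Blue marks genes past the threshold that are lower, red the one that is higher; Ndufb11 (-0.51) and Ndufaf6 (-0.50) are lowest and Ndufc1 (0.47) is highest.

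Promoter windows were available for 74 of the 89 genes, from 250 bases before to 50 bases after the annotated gene start (RefSeq, GRCm38.p6), and for 9 of the 11 genes past the threshold. They are printed for both genes that fell with the lowest adjusted p, for the gene that rose, and for the other gene past the threshold whose window held one of 3 searched motifs. Capitals mark the letters AAGATGGCG, the core of the site of the factor YY1; all letters outside a match are in lower case.
Ndufa13, chr8:69901971-69902270, minus strand: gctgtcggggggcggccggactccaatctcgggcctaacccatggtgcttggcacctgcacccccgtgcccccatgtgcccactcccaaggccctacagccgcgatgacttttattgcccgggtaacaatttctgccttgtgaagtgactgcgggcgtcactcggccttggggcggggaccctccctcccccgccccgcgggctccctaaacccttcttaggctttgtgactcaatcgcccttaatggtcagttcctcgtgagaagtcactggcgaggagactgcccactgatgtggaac
Ndufb11, chrX:20617570-20617869, minus strand: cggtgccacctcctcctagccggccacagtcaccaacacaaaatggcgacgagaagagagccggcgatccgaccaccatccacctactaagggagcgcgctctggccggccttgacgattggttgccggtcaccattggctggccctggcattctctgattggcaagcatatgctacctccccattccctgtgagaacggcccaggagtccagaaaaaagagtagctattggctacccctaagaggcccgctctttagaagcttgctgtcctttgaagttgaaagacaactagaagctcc
Ndufc1, chr3:51408906-51409205, minus strand: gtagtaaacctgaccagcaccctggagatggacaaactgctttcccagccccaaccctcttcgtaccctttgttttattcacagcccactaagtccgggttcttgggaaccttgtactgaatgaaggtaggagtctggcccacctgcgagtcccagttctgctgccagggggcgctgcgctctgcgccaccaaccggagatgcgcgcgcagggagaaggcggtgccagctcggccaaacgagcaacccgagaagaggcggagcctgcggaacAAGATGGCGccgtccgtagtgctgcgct
Atp5j, chr16:84834927-84835226, minus strand: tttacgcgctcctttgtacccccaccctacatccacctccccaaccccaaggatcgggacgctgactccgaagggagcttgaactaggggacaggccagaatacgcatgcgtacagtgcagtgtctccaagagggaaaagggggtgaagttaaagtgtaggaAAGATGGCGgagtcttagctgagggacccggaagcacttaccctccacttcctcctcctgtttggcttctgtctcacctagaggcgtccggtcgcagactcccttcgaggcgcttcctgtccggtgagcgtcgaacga

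The same YY1 letters stood on the plus strand of the gene in the window of Ndufc1, which rose, 22 bases after its start, and in 1 of the 2 windows of Atp5j, which fell, at position -88 from its start. The windows of the 7 other genes past the threshold that have one held none of the 3 motifs, which says only that these exact letters are not there. Over the members, AAGATGGCG stood on either strand in 7 of 74 genes (9.46%, against 1.64% of 27025 genes with a window). The letters GCGCATGCG, the core of the site of the factor NRF1, stood in 8 of 74 members (10.81%, against 1.95% of all genes), and CCGGAAGT, an ETS site of the kind bound by GABP, in 5 of 74 (6.76%, against 4.31%). The 3 searched motifs differ in letters, and Uqcr11 alone held both the NRF1 and the ETS letters. These factors are known regulators of respiratory chain genes. Of the 19 members with a match 17 did not pass the test, and of all 74 members with a window 65 did not. Whether the motifs bear on the differences was not tested.

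Complex I, the NADH dehydrogenase, has a core conserved from bacteria and many accessory subunits around it. None of the 6 measured core genes (Ndufs1, Ndufs3, Ndufs7, Ndufs8, Ndufv1 and Ndufv2), which carry the flavin and iron-sulphur centres and the quinone site of the matrix arm or sit beside them, passed the test. Their differences ran from -0.19 (Ndufv1; adjusted p = 0.0983) to 0.062 (Ndufs7). Of the 30 accessory genes, counted by symbol and so with Ndufa4 and Ndufa4l2, 4 fell and 1 rose (16.7%, against 7.33% of all genes). With 6 core genes a count of 0 is no sign of a difference from the accessory genes, which was not tested. Ndufa13, which encodes the accessory subunit also known as GRIM-19, had log2 signals of 4.46, 4.76 and 4.91 in knockout livers (lowest, median and highest), against 4.78, 5.20 and 5.31 in control livers. Of the knockout livers, 5 lay below every control, and all 10 were under their own run's control mean. It fell by 0.35 ± 0.069 (SE; adjusted p = 0.00496), with differences of -0.29 within run 1 and -0.39 within run 2. Ndufb11, an accessory subunit of the membrane arm encoded on the X chromosome, had signals of 5.21, 5.72 and 6.23 in knockout livers, against 5.97, 6.17 and 6.74 in control livers. All knockout livers but replicate 9 (6.23) lay below the lowest control. Its difference was -0.51 ± 0.11 (adjusted p = 0.00821), 1.42-fold lower, with -0.76 in run 1 and -0.33 in run 2.

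Ndufb6 is another gene of the membrane arm. Its signals were 7.52, 7.65 and 7.86 in knockout livers, against 7.68, 7.85 and 8.29 in control livers, with 6 knockout livers below every control. The difference was -0.24 ± 0.063 (adjusted p = 0.0257), the same to 2 decimals in both runs, and the call was lost without control replicate 8 or 9 (adjusted p up to 0.051). Ndufa5, a subunit of the part of the matrix arm that hands electrons to quinone, had signals of 7.13, 7.63 and 7.89 in knockout livers, against 7.53, 7.88 and 8.51 in control livers. It fell by 0.27 ± 0.082 (adjusted p = 0.0477), with all 10 knockout livers under their own run's control mean, but the call was kept only without control replicate 3, 4, 5, 7 or 11 or knockout replicate 7, and lost without any 1 of the 15 other livers (adjusted p up to 0.0884).

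Ndufc1, a small membrane-arm subunit, was the member that rose. Its signals were 8.63, 9.40 and 9.81 in knockout livers, against 7.54, 8.87 and 9.24 in control livers. The 6 knockout livers of run 2 lay above every control, and the 4 of run 1 lay within the control range, where control replicates 3 and 4 were the lowest of all (8.03 and 7.54). The difference was 0.47 ± 0.14 (adjusted p = 0.0383), 0.33 in run 1 and 0.57 in run 2. The call was lost without control replicate 3, 6, 7, 8 or 9 or knockout replicate 1, 2, 7, 8, 9 or 10 (adjusted p up to 0.0711).

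**Figure D2:**
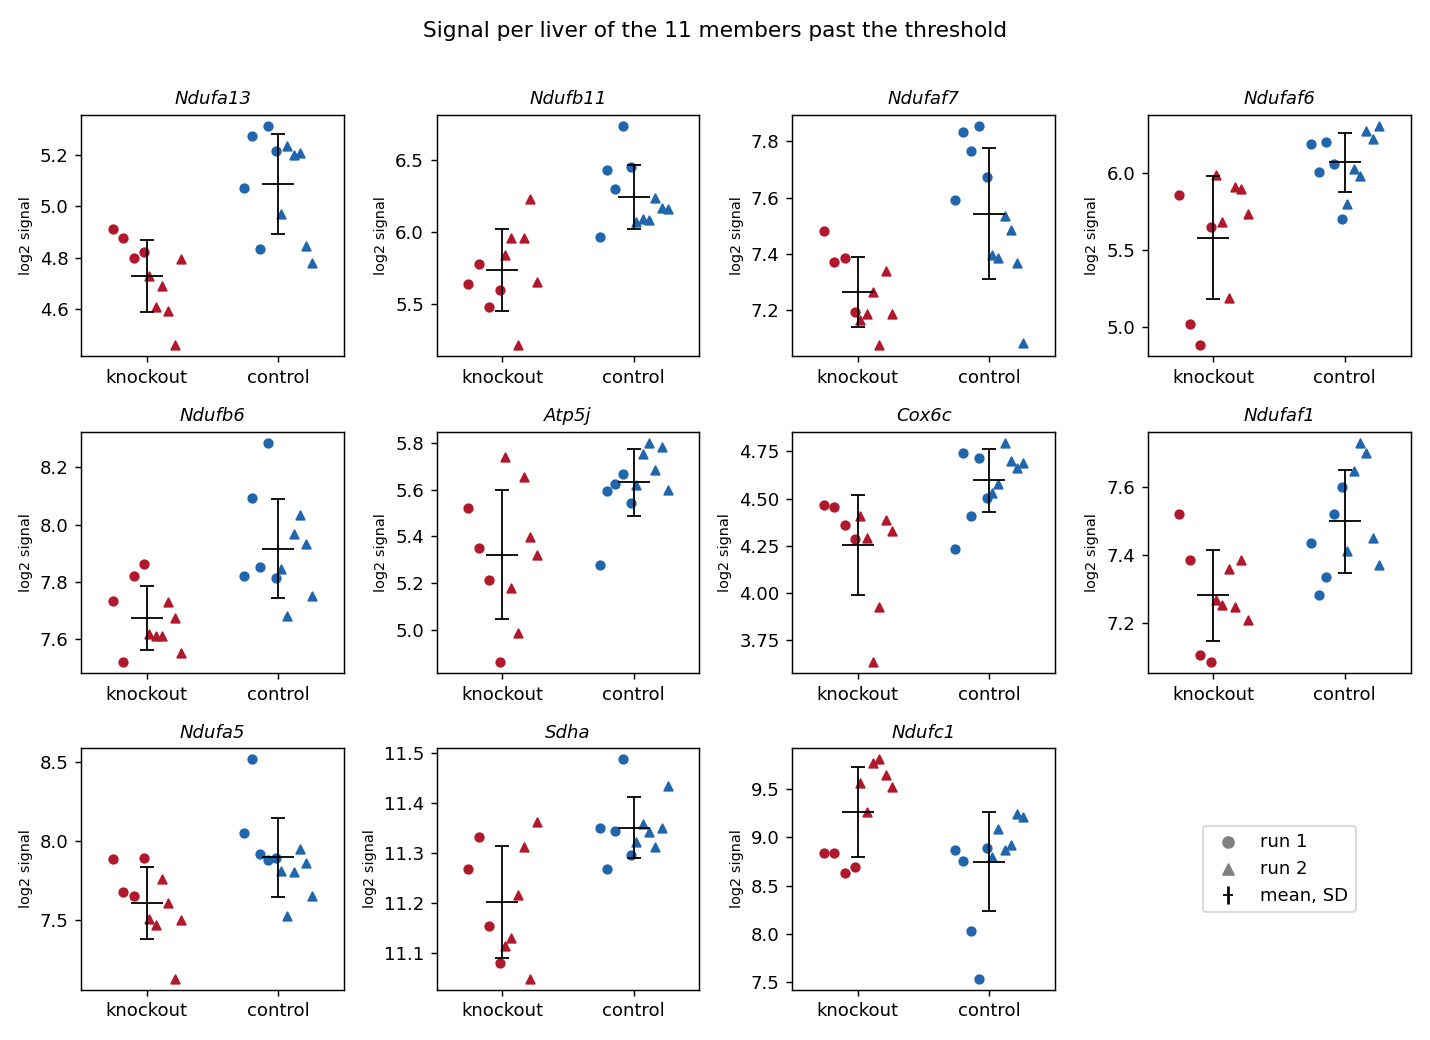
Log2 signal in each liver for the 11 genes past the threshold, knockout livers in red and control livers in blue, run 1 as circles and run 2 as triangles, with group mean and SD. In every panel the groups overlap; Ndufb11 comes closest to separation, with 9 of 10 knockout livers below the lowest control.

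Most genes with Ndufb symbols encode subunits of the distal membrane arm. Of the 10 measured, 9 had a difference below 0 (90%, against 54.9% of all genes), with a median of -0.19. Within each run taken alone, 5 of the 10 were below 0 in both. This was the lowest median among the complex I subunits grouped by symbol. The others were -0.023 for 15 Ndufa genes (60% below 0), -0.071 for 6 Ndufs, -0.12 for 3 Ndufv and 0.19 for 2 Ndufc genes. The 2 Ndufb genes that passed the test are 20% of them, against 7.33% of all genes and 12.6% of those above the median gene. Ndufb8 (-0.36 ± 0.16; adjusted p = 0.186) and Ndufb10 (-0.26 ± 0.11; adjusted p = 0.166) had differences as large as those of genes that passed, with larger errors. Within run 1 the differences were 0.045 for Ndufb8 and 0.023 for Ndufb10, and within run 2 they were -0.66 and -0.47, but the genotype by run term did not pass for either gene (adjusted p = 0.406 and 0.402). Ndufa4 carries a complex I name but has since been placed in complex IV, and by its name it was counted with complex I here. Its signals were 10.35, 10.51 and 10.98 in knockout livers, against 9.82, 10.37 and 10.59 in control livers, and its difference of 0.23 ± 0.076 missed the threshold (adjusted p = 0.0667). Its relative Ndufa4l2, known as a hypoxia-induced gene, was dim, with means of 3.84 ± 0.11 (SD, n = 10) in knockout livers and 3.69 ± 0.18 (SD, n = 11) in control livers (adjusted p = 0.195). Ndufb9 and Ndufb3, at the upper and lower end of the complex I signals, had differences of -0.053 ± 0.091 and 0.12 ± 0.12 (SE), and neither passed.

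The 8 complex I assembly factors, which help build the enzyme but are not part of it, included 3 that fell (37.5%, against 4.05% of all genes and 7.06% of those above the median gene) and none that rose, with a median difference of -0.22. Ndufaf6, needed for assembly of the early modules, had signals of 4.88, 5.71 and 5.99 in knockout livers, against 5.70, 6.06 and 6.31 in control livers. Of the knockout livers, 5 lay below every control, and replicates 2, 3 and 7 were the lowest, at 5.02, 4.88 and 5.19. The fall was 0.50 ± 0.12 (adjusted p = 0.0174), 0.68 in run 1 and 0.37 in run 2. Ndufaf7, a methyltransferase that modifies a core subunit of the complex, had signals of 7.08, 7.23 and 7.48 in knockout livers, against 7.08, 7.53 and 7.85 in control livers, and control replicate 11 (7.08) lay as low as the lowest knockout liver. It fell by 0.26 ± 0.060 (adjusted p = 0.0116), and each of the 10 knockout livers was under the mean of its own run's controls. Ndufaf1, part of the group of proteins that assembles the membrane arm, had signals of 7.09, 7.26 and 7.52 in knockout livers, against 7.28, 7.45 and 7.73 in control livers. Its difference was -0.22 ± 0.064 (adjusted p = 0.038), a call lost without control replicate 4, 5, 7, 8 or 9 or knockout replicate 3, 4, 5, 6, 7, 8 or 10 (adjusted p up to 0.0749). Of the 11 calls, those of Ndufa13, Ndufb11, Ndufaf6 and Ndufaf7 were the 4 that held without any 1 of the 21 livers. Ndufaf4 (-0.21 ± 0.11; adjusted p = 0.241) was lower by 0.55 in the knockout livers of run 1 and higher by 0.040 in those of run 2.

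Complex II, succinate dehydrogenase, also works in the citric acid cycle. Sdha, its flavoprotein, had signals of 11.05, 11.19 and 11.36 in knockout livers, against 11.27, 11.34 and 11.49 in control livers, with 6 knockout livers below every control. The fall was small, 0.15 ± 0.045 (adjusted p = 0.0491; 1.11-fold lower), and stood at the threshold: it was kept only without control replicate 2 or knockout replicate 2, 8 or 10. The iron-sulphur subunit gene Sdhb ran from 9.29 to 9.87 in knockout livers, against 9.64 to 10.19 in control livers, and its difference of -0.16 ± 0.081, similar in size to that of Sdha, did not pass (adjusted p = 0.255). Sdhb had 0.041 in run 1 and -0.31 in run 2, whereas Sdha had -0.14 in run 1 and -0.16 in run 2. The membrane anchor genes had differences above 0, of 0.079 ± 0.083 for Sdhc (adjusted p = 0.64) and 0.15 ± 0.13 for Sdhd (adjusted p = 0.558). For Sdhd it was 0.40 in run 1, where control replicate 4 was the lowest liver (8.26), and -0.032 in run 2. None of the 4 complex II assembly factors passed; Sdhaf1, which serves the iron-sulphur subunit, had the lowest p, with a difference of -0.22 ± 0.091 (adjusted p = 0.139), -0.46 in run 1 and -0.049 in run 2. Sdhaf4 differed by -0.022 ± 0.077.

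Complex III, the cytochrome bc1 complex, was the one in which no gene passed and all differences lay within 0.11 of 0. It has 7 genes here, and 7.33% of all genes passed. The large core proteins Uqcrc1 and Uqcrc2 had the lowest differences, -0.11 ± 0.053 (adjusted p = 0.233) and -0.094 ± 0.053 (adjusted p = 0.311). For Uqcrc1 all 10 knockout livers were under their own run's control mean, with signals of 9.81 to 10.06, inside or just below the control range of 9.82 to 10.24. Uqcr10, a small subunit, differed by 0.0056 ± 0.12. Cyc1, the cytochrome c1 of this complex, has a symbol outside the stems and was followed in the list of electron carriers.

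Complex IV, cytochrome c oxidase, had 1 of its 17 genes past the threshold (5.88%, against 7.33% of all genes) and a median difference of 0.0082. Cox6c, a small membrane subunit, had signals of 3.64, 4.34 and 4.46 in knockout livers, against 4.23, 4.66 and 4.80 in control livers. Knockout replicates 7 and 8 were lower than all controls, and the 8 others lay between 4.28 and 4.46, above 1 or 2 of the control livers. It fell by 0.34 ± 0.095 (adjusted p = 0.0326), 0.13 in run 1 and 0.50 in run 2, and the call was lost without control replicate 2, 4, 8, 9 or 10 or knockout replicate 8 (adjusted p up to 0.0638). Its signal is not far above the array median of 3.75.

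Several complex IV subunits come as a general form and a tissue-restricted one, and neither kind changed past the threshold. Of the general forms, Cox4i1 had means of 9.74 ± 0.20 in knockout livers and 9.85 ± 0.21 in control livers (SD, n = 10 and 11 for these genes). Cox6a1 had a mean of 12.03 ± 0.15 in knockout livers and a difference of 0.02 ± 0.046 (SE). Cox6b1 had means of 8.25 ± 0.20 in knockout livers and 8.14 ± 0.42 in control livers, and Cox8a 9.27 ± 0.19 in knockout livers and 9.03 ± 0.39 in control livers (SD). Cox8a had a difference of 0.21 ± 0.091 (SE; adjusted p = 0.16), 0.47 in run 1 and 0.026 in run 2. Cox7a2, the liver form of its subunit, had -0.20 ± 0.080 (adjusted p = 0.141), and Cox7a2l, which takes part in joining complexes into supercomplexes, 0.17 ± 0.12 (adjusted p = 0.422). The heart and muscle forms Cox6a2, Cox7a1 and Cox8b had means of 3.55, 4.05 and 2.90 in knockout livers and 3.54, 4.13 and 2.88 in control livers. The form of Cox4 known from lung, Cox4i2, and the testis forms Cox6b2, Cox7b2 and Cox8c also lay near or below the array median, at 3.49, 4.12, 2.49 and 2.90 in knockout livers. Cox7b, a general subunit, was listed at 3.06 in knockout livers and 3.04 in control livers.

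Among all members, 10 had a mean signal below the array median, and none of these passed. They include general subunits that every respiring cell uses, such as Cox5b, Cox7b, Ndufb3 and Atp5h, so for these rows a low signal does not mean little transcript. Cox5b had means of 3.48 ± 0.24 in knockout livers and 3.43 ± 0.34 in control livers. The row of its pseudogene Cox5b-ps had 9.98 ± 0.14 in knockout livers and 9.74 ± 0.25 in control livers (SD, n = 10 and 11). Whether probes of such pairs are shared was not tested, and the differences of these genes are uncertain. For Cox5b-ps the difference was 0.23 ± 0.077 (SE; adjusted p = 0.0696), short of the threshold. By signal, 4 of 27 members under 6 fell, 5 of 32 between 6 and 9 fell and 1 rose, and 1 of 30 at 9 or above fell; over all genes the share past the threshold was 5.23% under 6, 12.6% between 6 and 9, and 16.2% at 9 and above. Among the brightest rows the members' share was 3.33%.

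Complex V, ATP synthase, had 1 of its 13 genes past the threshold (7.69%, against 7.33% of all genes). Atp5j, the coupling factor 6 of the stalk that holds the catalytic head still, had signals of 4.86, 5.33 and 5.74 in knockout livers, against 5.28, 5.62 and 5.80 in control livers, and 4 knockout livers lay below every control. Its difference was -0.32 ± 0.088 (adjusted p = 0.0315), -0.31 in run 1 and -0.33 in run 2, and the call was lost without control replicate 4, 7 or 8 or knockout replicate 3, 4, 7 or 10 (adjusted p up to 0.0619). Atp5o, another stalk subunit, had a difference of the same size with a wider error (-0.32 ± 0.12; adjusted p = 0.0998). Atp5b and Atp5a1, of the catalytic head, gave bright signals. Atp5b had means of 12.02 ± 0.12 in knockout livers and 12.02 ± 0.12 in control livers (SD, n = 10 and 11), with an adjusted p of 0.998. Atp5a1 differed by -0.086 ± 0.057 (SE, adjusted p = 0.409). Its difference was -0.25 in run 1 and 0.034 in run 2, and its genotype by run term did not pass (adjusted p = 0.31). Atp5g3, the c-ring gene measured here, differed by 0.087 ± 0.067 (adjusted p = 0.494). Atp5h had means of 2.90 ± 0.63 in knockout livers and 2.68 ± 0.22 in control livers (SD).

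No member passed the test of a difference between the runs. Within run 1 the median difference of the members was -0.075 and within run 2 it was -0.049, and 45 of the 89 members (50.6%) had the same sign in both, against 58.0% of all genes. Of these 45, 35 were below 0 in both runs and 10 above 0. The 11 genes past the threshold had the same sign in both runs, which choosing them in a fit over both runs makes likely. The genotype by run term was fitted over all genes, of which 0.0315% passed, and at an unadjusted p under 0.05 it reached 16 of 89 members (18%, against 10.2% of all genes and 15% of those above the median gene). The lowest value was that of Ndufa8, a membrane-arm subunit, with -0.40 in run 1 and 0.068 in run 2 (adjusted p = 0.0947), followed by Atp5d, the delta subunit of the synthase, with 0.38 in run 1 and -0.11 in run 2 (adjusted p = 0.141). Fitted within run 1 alone, no member passed and 3 genes of the whole table did. Within run 2 alone, 2 members fell and 1 rose (3.37%), against 5.06% of all genes past the threshold. By direction, 2.25% of the members fell there, against 2.89% of all genes.

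**Figure D3:**
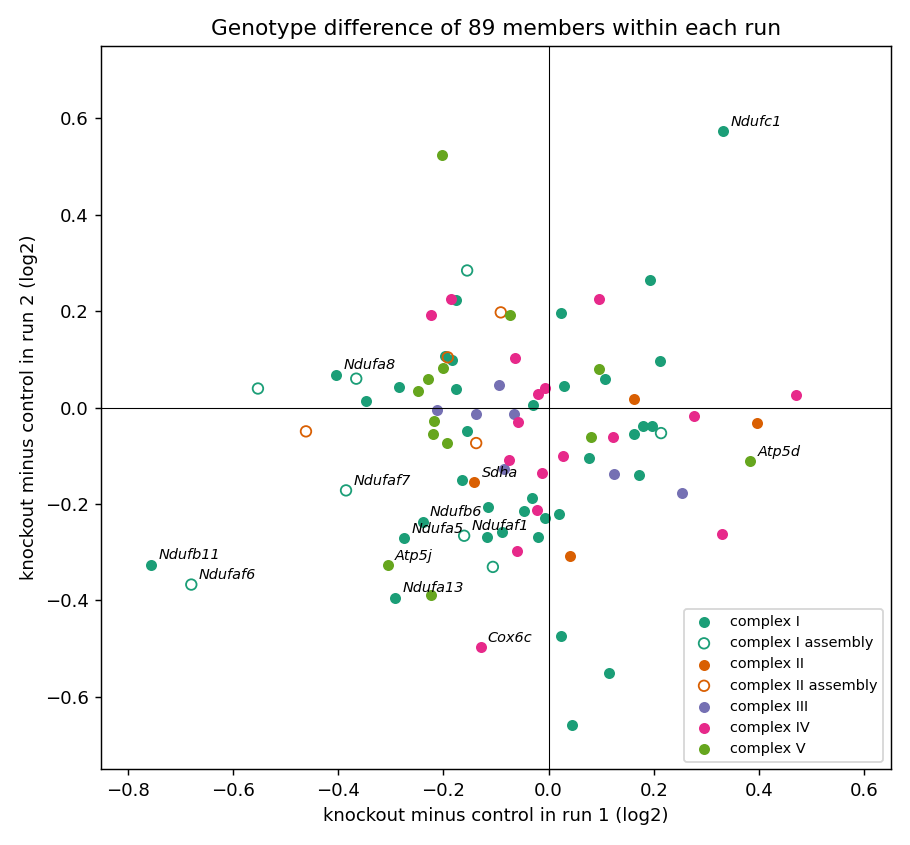
Genotype difference of each member in run 1 (x axis) against run 2 (y axis), both knockout minus control in log2; filled points are subunits, open points assembly factors. The labelled genes past the threshold lie at lower left, below 0 in both runs, apart from Ndufc1 at upper right; Ndufa8 and Atp5d change sign between runs.

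Livers were also described by the median deviation of the members from the control mean of their run. It ran from -0.18 to 0.029 in knockout livers, with a median of -0.084, against -0.13 to 0.12 in control livers, with a median of 0.0019. In 9 of 10 knockout livers it was below 0, as it was in 5 of 11 control livers, and the groups overlapped. Each control liver is part of the mean it was measured against, and no knockout liver is. For each gene the control deviations therefore average 0 within a run by construction, although a single control liver need not lie near 0. These counts, here and for each complex, are no test of genotype. Knockout replicate 6 was lowest, with 73 of 89 members below the control mean of its run, and knockout replicate 8 was highest, with 42. Control replicate 3 had 78 members below the mean of its run, more than any knockout liver, and control replicate 8 had 20, the fewest. The deviation was most even between genotypes for complex IV, with medians of -0.019 in knockout livers and -0.0097 in control livers. For the complex I assembly factors the medians were -0.15 in knockout livers and -0.017 in control livers, and 9 of 10 knockout livers were below 0, as were 7 of 11 control livers.

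**Figure D4:**
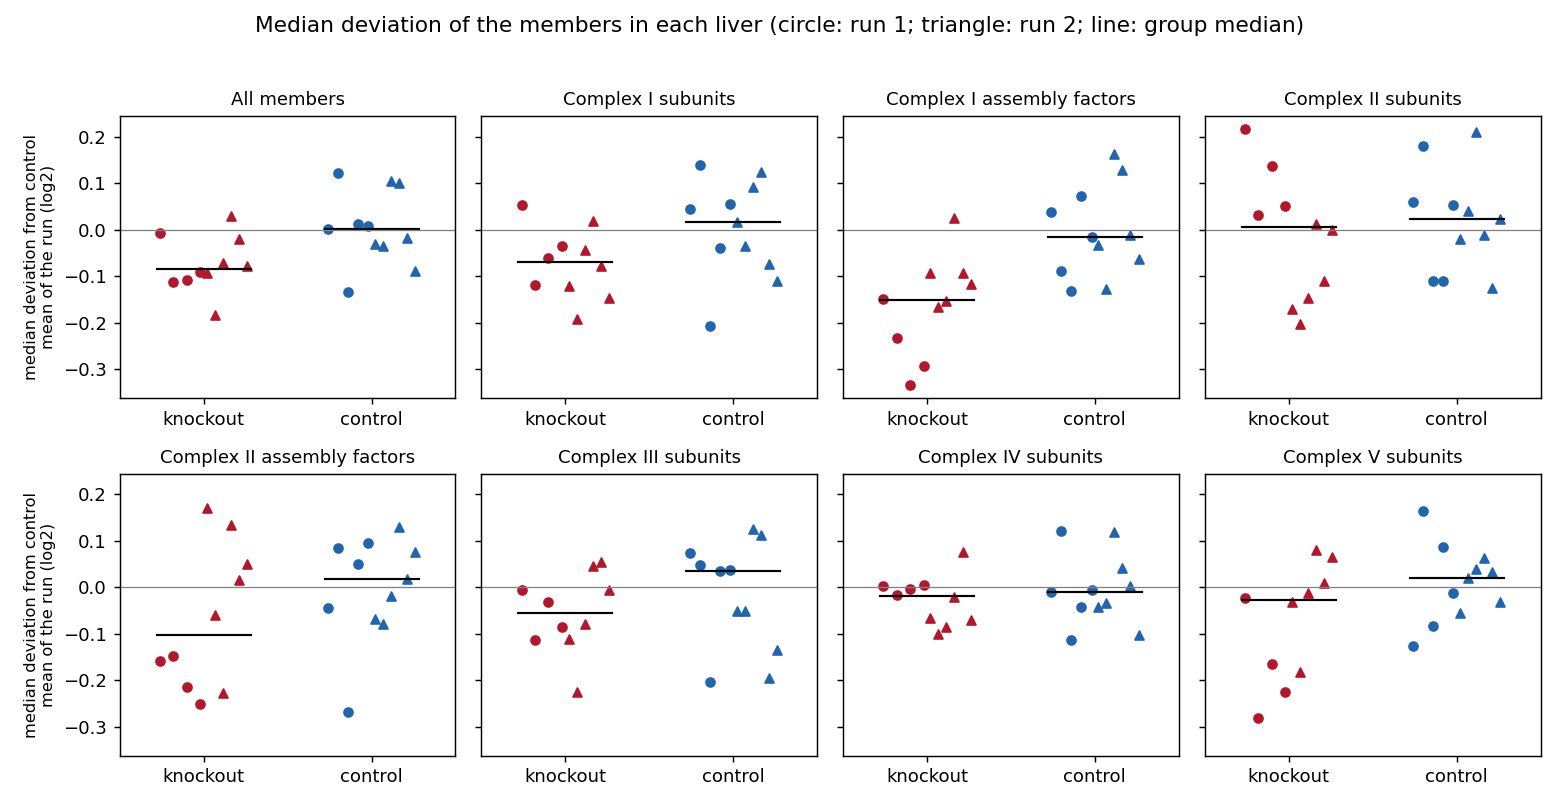
Median deviation (log2) of all members and of each group from the control mean of the same run, 1 point per liver, knockout livers in red and control livers in blue; circles are run 1, triangles run 2, lines group medians. Groups overlap in every panel. The complex I assembly factors show the clearest offset, with knockout livers between -0.33 and 0.025. Control livers are part of the mean they are set against, so for each gene their deviations average 0 within a run by construction.

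Markers of other cells differed between the genotypes in the same livers. For the counts below, 3.28% of all genes rose and 4.05% fell. The mean signal of 13 stellate and fibroblast genes ran from 6.92 to 7.49 in knockout livers, against 6.10 to 7.33 in control livers, and 8 of them rose. For 10 Kupffer cell genes it ran from 7.06 to 7.95 in knockout livers, against 5.51 to 7.86 in control livers (6 rose), for 9 monocyte and macrophage genes from 4.72 to 6.03, against 4.21 to 5.31 in control livers (4 rose), and for 9 B and plasma cell genes from 5.25 to 6.91, against 4.12 to 5.72 in control livers (6 rose). Among 12 continuous endothelial genes 7 rose, with 5.07 to 5.75 in knockout livers and 4.45 to 4.87 in control livers, and among 12 sinusoidal genes 8 fell, with 6.01 to 6.77 in knockout livers and 6.39 to 7.37 in control livers. Of 11 T and NK cell genes 3 rose and of 10 neutrophil genes 1 rose (3.31 to 8.46 in knockout livers, 3.03 to 3.24 in control livers). None of 5 erythroid, 5 cholangiocyte or 10 muscle and brown fat genes passed, and of the hepatocyte genes Apoa2 fell. Control replicate 3, in which most members were low, had the highest control value of the continuous endothelial, stellate, Kupffer, monocyte, B cell and T cell lists. Signals under the array median were found for 5 of 11 T and NK cell genes, 5 of 10 neutrophil genes and 8 of 10 muscle and brown fat genes, and for no hepatocyte or Kupffer cell gene. In whole liver, fewer cells of a type and less RNA per cell cannot be told apart, and the part of these markers in the members' differences was not tested.

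Other genes of mitochondrial metabolism were followed in lists chosen from textbook knowledge, counted in the same fit. Over all genes 4.05% fell and 3.28% rose, and of those above the median gene 7.06% fell. The share that fell was 30% for the electron carriers and 7.5% for the assembly factors outside the symbol rule. It was 8.97% for mitochondrial and 2.86% for cytosolic ribosomal proteins. The electron carriers had 3 of 10 genes lower and none higher, with a median difference of -0.22. Prodh, which oxidises proline, fell by 0.40 ± 0.095 (SE; adjusted p = 0.0145), the electron transfer flavoprotein gene Etfa by 0.27 ± 0.077 (adjusted p = 0.0367) and Cyc1 by 0.34 ± 0.10 (adjusted p = 0.0443); for each of these 3 genes all 10 knockout livers were on the lower side. Cyc1 ran from 7.72 to 8.25 in knockout livers, against 7.95 to 8.64 in control livers. The call of Etfa was lost without any 1 of 8 livers, that of Cyc1 without any 1 of 14, and that of Prodh when run was left out of the fit (adjusted p = 0.0564). Of 40 assembly factors outside the symbol rule 3 fell and none rose (median -0.076). These were Coa6, which delivers copper to complex IV (-0.39 ± 0.089; adjusted p = 0.0128), Acad9, which works beside Ndufaf1 in building complex I (-0.36 ± 0.084; adjusted p = 0.0132), and Atpaf2 for complex V (-0.24 ± 0.064; adjusted p = 0.0286). Acad9 ran from 6.90 to 7.28 in knockout livers, against 6.92 to 7.71 in control livers. Of 12 ubiquinone synthesis genes 2 fell, the kinase-like Coq8a by 0.53 ± 0.11 (adjusted p = 0.00669), 0.22 in run 1 and 0.76 in run 2, and the hydroxylase Coq6 by 0.23 ± 0.065 (adjusted p = 0.0338).

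Among 18 genes of the citric acid cycle and pyruvate dehydrogenase, 5 fell (27.8%, against 4.05% of all genes) and 1 rose, with a median of -0.093. Sucla2, a subunit of succinyl-CoA synthetase, fell by 0.33 ± 0.060 (SE; adjusted p = 0.00322), Dlat, of pyruvate dehydrogenase, by 0.37 ± 0.093 (adjusted p = 0.0211) and Dlst, of oxoglutarate dehydrogenase, by 0.18 ± 0.049 (adjusted p = 0.0293). The gene that rose, named after its value was seen, was the fumarase gene Fh1 (0.27 ± 0.078; adjusted p = 0.0374). Of 18 regulators of mitochondrial biogenesis 3 fell: the orphan receptor genes Esrrg (-0.51 ± 0.12; adjusted p = 0.0141) and Esrra (-0.27 ± 0.074; adjusted p = 0.0304), and Polg2, of the mitochondrial DNA polymerase (-0.30 ± 0.081; adjusted p = 0.0296). Esrrg ran from 3.96 to 5.30 in knockout livers, against 4.71 to 5.38 in control livers, and the call held without any 1 liver; that of Esrra was lost without any 1 of 5 livers and that of Polg2 without any 1 of 4. Of 11 mitochondrial carrier, uncoupler and Vdac channel genes 1 rose (9.09%, against 3.28% of all genes). This was the adenine nucleotide carrier gene Slc25a4 (0.53 ± 0.12, adjusted p = 0.0142). It ran from 5.73 to 6.65 in knockout livers, against 5.17 to 5.98 in control livers. The import and quality control list had 2 of 18 lower, the fusion gene Opa1 (-0.25 ± 0.060; adjusted p = 0.0151) and the cristae gene Immt (-0.18 ± 0.054; adjusted p = 0.0486). Of 10 antioxidant genes 2 fell, the superoxide dismutase gene Sod1 (-0.76 ± 0.19; adjusted p = 0.0185) and Txnrd2 (-0.29 ± 0.084; adjusted p = 0.037).

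Proteins of the mitochondrial ribosome translate the subunits made inside the organelle. Of their 78 rows 7 fell (8.97%, against 4.05% of all genes and 7.06% of those above the median gene). None rose, and the median was -0.077. Mrpl1 fell by 0.32 ± 0.060 (SE; adjusted p = 0.00388), Mrpl40 by 0.37 ± 0.078 (adjusted p = 0.0079), and a row annotated as the pseudogene Mrpl27-ps by 0.60 ± 0.15 (adjusted p = 0.0197). Of 70 cytosolic ribosomal protein genes 2 fell (2.86%) and 1 rose, with a median of -0.040. Those that fell were Rpl22l1 (-0.41 ± 0.12) and Rpl36al (-0.30 ± 0.089, both adjusted p = 0.0417). Rps4x rose (0.69 ± 0.19, adjusted p = 0.0345). Among these genes, calls were lost without any 1 of 3 livers for Dlst, 4 for Atpaf2, 5 for Rps4x, 11 for Coq6 and Txnrd2, 13 for Rpl36al, 14 for Rpl22l1 and 16 for Immt. No difference between these lists and the oxidative phosphorylation genes was tested.

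**Figure D5:**
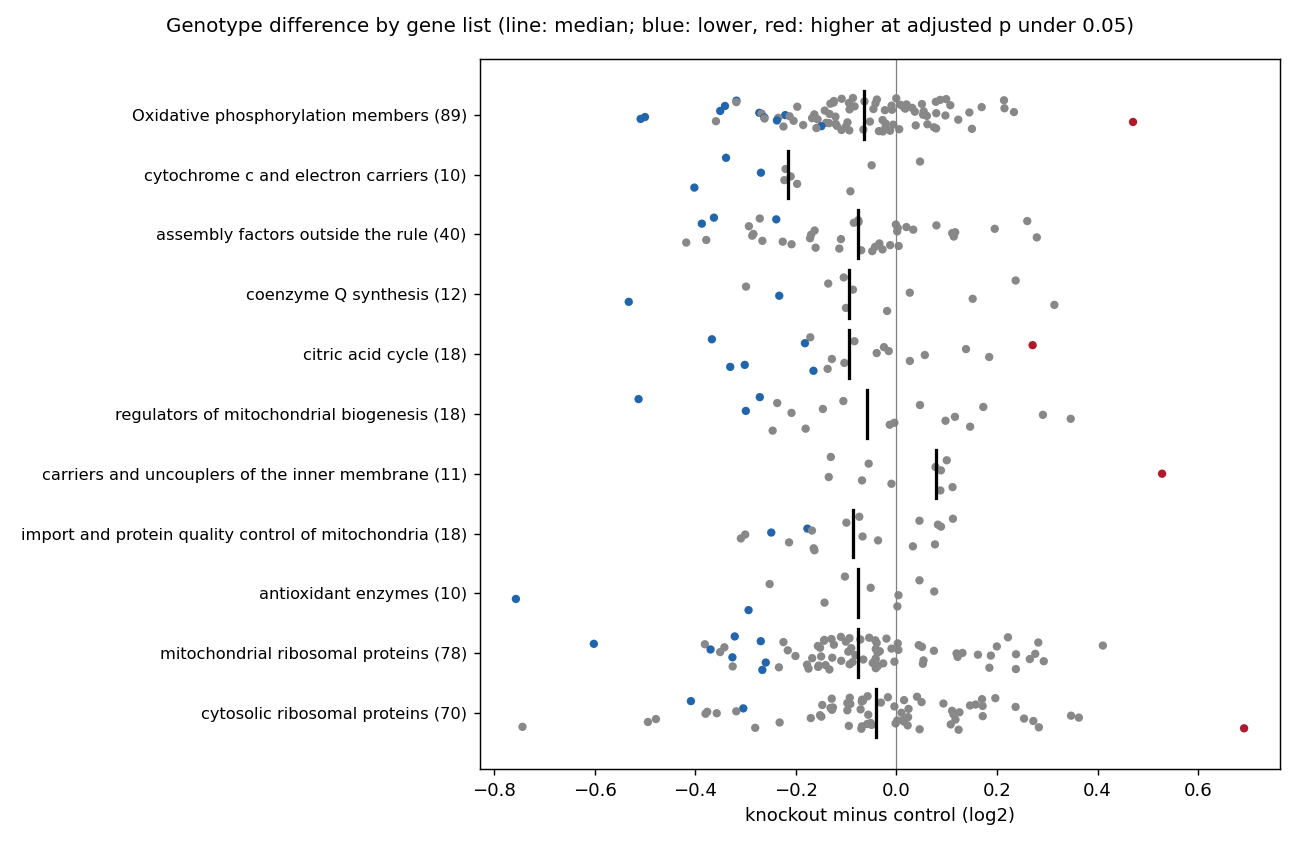
Genotype difference (x axis: knockout minus control, log2) of each gene in the oxidative phosphorylation set and in each related list, with the number of genes in parentheses; black lines are list medians. Medians lie between -0.22 and 0.078, and the spread of genes within a list is wider than the spacing of the medians. The list labelled as inner membrane carriers and uncouplers also holds Vdac1, Vdac2 and Vdac3, which encode outer membrane channels.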

How the data were processed

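RNA of whole liver from 10 knockout and 11 control mice was hybridised to Affymetrix arrays. The authors deposited log2 values, 1 per gene row, made with RMA per the submitters' processing notes; its version, the array type and the build are not stated there. RMA usually includes quantile normalization, and the sorted deposited values were the same on every array within 0.00193, so a shift shared by all genes cannot be seen. Symbols came from the platform annotation (24705 of 25428 rows named). Genotype was tested with limma 3.58.1 in R 4.3.3 (lmFit, eBayes) on all rows, unfiltered, with run as a term, Benjamini-Hochberg adjustment and a threshold of 0.05; a second fit added genotype by run. Differences are knockout minus control with the SE of the fit. On simulated data of 25428 genes, 45% of 100 genes changed by 0.3 and 74% of 100 changed by 0.5 (log2) were recovered. There were 8 false calls, and changes of the size seen here can be missed. Far fewer genes changed in the simulation than the 1864 that passed in the data. Recovery after the adjustment depends on that number, so these shares need not hold for the data. The number of arrays limits the precision. Labels call the samples biological replicates, taken as 1 animal each.

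Genes were named by rule: up to 5 genes past the threshold per complex and role, or else the 1 with the lowest p; the Sdh genes; the brightest and dimmest gene of each complex; isoforms of complex IV and the c-ring; and up to 3 per related list. Other members named (such as Ndufb8, Ndufb10, Ndufa4, Ndufaf4, Atp5o and Atp5d) were chosen after their values were seen. The members and lists were chosen with earlier results of these data known. Alternatives were no run term, each run alone, a replicate block, another normalization, median centring, a filter on dim genes, an intensity trend, array weights and leaving out each liver; leaving out both livers least correlated with their group was added after seeing the data. Genes made from mitochondrial DNA were not analysed here.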

Additional observations from a re-analysis of the deposited data

Results flagged for a closer look

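Among the 38 named members, 5 had a knockout liver set apart from the other 9 by Dixon's ratio, which chance gives in about 1 of 20 groups. In knockout replicate 9, 4 of them were high: Atp5h at 4.48 (2.32 to 3.18 in the other knockout livers), Cox7b at 4.06 (2.61 to 3.20), Ndufb9 at 11.78 (10.86 to 11.21) and Sdhc at 9.82 (9.22 to 9.50). In knockout replicate 6, Sdhb was low, at 9.29 (9.66 to 9.87 in the other knockout livers). None of these 5 genes passed the test between genotypes. The 11 control livers were too many for the ratio and were not examined.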

How the results depend on the processing

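The median difference of the members was -0.063 as reported. It ran from -0.0894 without knockout replicate 8 to -0.0452 without knockout replicate 2 over the alternatives that kept all 89 members. The filter on dim genes left 79 members with a median of -0.0931, which those 79 also had in the reported fit. In the fit after that filter 10 of the 79 members passed (12.7%), against 15.6% of the 12714 genes kept. By direction, 11.4% of these members fell, against 8.72% of the genes kept. The count of members that fell, 10 as reported, was 0 within run 1, 2 within run 2 and 5 with the replicate number as a block, and the count that rose, 1 as reported, was 0 without the run term and 0 within run 1. Without single livers the members that fell numbered 4 to 11 and those that rose 0 to 2. With the 2 livers least like their group and run left out (knockout replicate 6 and control replicate 3), 7 fell and 1 rose. The share that fell was then 7.87% of the members, against 4.28% of all genes. Genes of the whole table that fell numbered 1030 as reported, 1 within run 1, 735 within run 2 and 602 with the block. Within run 2 the share that fell was 2.25% of the members and 2.89% of all genes. With the block it was 5.62% of the members and 2.37% of all genes. Fewer livers enter the fits within runs. The share of members that fell without single livers was 4.49% to 12.4%, against 2.47% to 5.78% of all genes. Apart from single livers and the fits within runs, named calls were lost with the run term left out (Ndufc1, Ndufa5, Clec4g, Prodh, Coq6 and Rpl22l1), with the intensity trend (Ndufaf1, Ndufa5, Sdha, Atpaf2, Coq6, Dlst, Esrra, Immt and Rpl36al), without the 2 livers named above (Ndufa5, Sdha, Atp5j, Etfa, Polg2, Immt, Rps4x and Rpl22l1), with the filter on dim genes (Sdha and Immt) and with array weights (Sdha, Immt and Rpl22l1). The block kept 6 of the 11 calls and lost 5 (Ndufaf1, Ndufa5, Sdha, Cox6c and Atp5j). It also ended the calls of Clec4g, Etfa, Cyc1, Acad9, Coq6, Dlst, Polg2, Esrra, Opa1, Immt, Txnrd2, Rps4x and Rpl36al. Replicate numbers are not said to mark pairs, and livers of the same number deviated together only weakly (correlations of -0.055 to 0.17 over 10 numbers, 1 of which matched its own number best). No sign of a called member changed, and 16 of the 27 named members not called changed sign in some alternative, none past the threshold there. The limma genotype by run term passed for 0 members as reported (16 at an unadjusted p under 0.05) and in each alternative in which it was fitted. Differences of dim rows are limited by background, which the deposited values do not show.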
